A study of Mus musculus with 10 samples.

Results

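Neutrophils and mast cells are granulocytes of the innate immune system, and the transcripts of 10 of their genes were followed in regenerating mouse muscle. The genes were picked by name from 25700 genes listed in the count files and matched by Ensembl identifier. The neutrophil genes were *S100a8*, *S100a9*, *Csf3r*, *Retnlg* and *Mpo*, and the mast cell genes were *Cpa3*, *Mcpt4*, *Cma1*, *Tpsb2* and *Kit*. All 10 were listed in every mouse and all 10 had reads. The values come from RNA sequencing of the tibialis anterior (TA), a muscle of the lower hindlimb, taken 6 days after an injection of cardiotoxin, a snake venom toxin that kills muscle fibers and starts their regeneration. The mice were male, 12 weeks old and of the C57BL/6 strain. In the 5 Pax7Cre mice, labelled wild type, Cre recombinase is made from the *Pax7* locus of muscle stem cells. The 5 miR-501KO mice, labelled miR-501 -/-, carry the same Cre and, in the design text of the series, a floxed miR-501 allele on the X chromosome, which Cre removes in cells of the myogenic lineage. Cre is active in this lineage from development on, so the deletion precedes the injury. Both groups thus carry Cre and received the toxin, and no uninjured muscle is among these samples, so the change of any gene after injury is not analysed here.

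After a toxin injury, neutrophils enter muscle within the first day, clear debris and are then replaced by macrophages, which take up dead cells and fiber remnants. Mature neutrophils hold large stores of *S100a8* and *S100a9*, the subunits of the calcium-binding protein calprotectin, and sense the growth factor G-CSF through the receptor *Csf3r*. Mast cells reside in connective tissue, around vessels and nerves, and fill their granules with proteases, among them the carboxypeptidase *Cpa3*, the chymases *Mcpt4* and *Cma1* and the tryptase *Tpsb2*, while the receptor *Kit* binds stem cell factor, on which they depend for survival. In bulk tissue, fewer cells of a type and less RNA per cell cannot be told apart.

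The genes lie on 7 chromosomes, and some are neighbours. In the GRCm38 build with GENCODE M21, *S100a8* (chr3:90668978-90670035, plus strand) and *S100a9* (chr3:90692632-90695721, minus strand) are side by side, and *Cma1* (chr14:55941451-55944675) and *Mcpt4* (chr14:56059629-56062313), both on the minus strand, lie in the chymase cluster. *Cpa3* (chr3:20215620-20242181, minus strand), *Csf3r* (chr4:126024550-126044440, plus strand), *Kit* (chr5:75574916-75656722, plus strand), *Mpo* (chr11:87793581-87804413, plus strand), *Retnlg* (chr16:48872621-48874496, plus strand) and *Tpsb2* (chr17:25366305-25369098, plus strand) lie apart. RefSeq promoters of GRCm38.p6 were found for 9 of the 10 genes, all but *Tpsb2*. The 250 bases before the RefSeq start are given, 5′ to 3′ on the strand of the gene, for 3 mast cell proteases, whose transcripts moved together between mice, and for *S100a8* and *S100a9*. Capitals mark a match to a motif, read on both strands.
Cpa3 (chr3:20242182-20242431, minus strand): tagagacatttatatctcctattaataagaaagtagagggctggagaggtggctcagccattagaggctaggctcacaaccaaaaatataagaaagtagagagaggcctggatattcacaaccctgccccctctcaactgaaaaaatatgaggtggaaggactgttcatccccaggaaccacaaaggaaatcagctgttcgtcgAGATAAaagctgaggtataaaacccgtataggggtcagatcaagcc
Mcpt4 (chr14:56062311-56062560, minus strand): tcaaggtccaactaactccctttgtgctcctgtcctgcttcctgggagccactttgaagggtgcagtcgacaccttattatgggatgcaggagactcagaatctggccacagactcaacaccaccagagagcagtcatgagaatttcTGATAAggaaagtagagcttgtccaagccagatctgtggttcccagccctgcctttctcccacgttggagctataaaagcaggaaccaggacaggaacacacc
Cma1 (chr14:55944676-55944925, minus strand): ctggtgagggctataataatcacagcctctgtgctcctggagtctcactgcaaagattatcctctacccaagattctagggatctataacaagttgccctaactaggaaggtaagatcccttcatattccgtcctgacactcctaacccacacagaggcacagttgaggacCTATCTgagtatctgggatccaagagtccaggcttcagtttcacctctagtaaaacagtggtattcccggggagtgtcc
S100a8 (chr3:90668821-90669070, plus strand): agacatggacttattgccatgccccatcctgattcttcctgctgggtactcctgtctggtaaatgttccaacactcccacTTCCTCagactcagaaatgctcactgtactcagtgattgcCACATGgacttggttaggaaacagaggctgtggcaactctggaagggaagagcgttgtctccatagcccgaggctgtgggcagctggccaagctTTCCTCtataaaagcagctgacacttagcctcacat
S100a9 (chr3:90695722-90695971, minus strand): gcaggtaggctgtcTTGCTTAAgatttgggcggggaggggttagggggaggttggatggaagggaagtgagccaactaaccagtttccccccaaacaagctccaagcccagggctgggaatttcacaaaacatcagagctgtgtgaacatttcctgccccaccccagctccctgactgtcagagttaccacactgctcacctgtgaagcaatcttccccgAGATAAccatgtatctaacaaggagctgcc

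The motifs were the binding letters of GATA factors (AGATAA as well as AGATAG, and likewise TGATAA as well as TGATAG), an E-box of the type bound by MITF (CATGTG), the core bound by ETS factors such as PU.1 (GAGGAA) and a C/EBP-type site (TTGCNNAA). Only AGATAA was searched for GATA factors at first, and the other spellings were added after the sequences were seen. GATA and MITF factors act in mast cells, and PU.1 and C/EBP factors act in neutrophils. The GATA letters stood 46 bases before the start of *Cpa3*, 103 before that of *Mcpt4* and 79 before that of *Cma1*. Of these, only the *Cpa3* match has the spelling searched at first. Those of *Mcpt4* (TGATAA) and *Cma1* (CTATCT, which is AGATAG on the other strand) came with the added spellings. The letters also stood 30 bases before the start of *S100a9* (AGATAA) and 143 before that of *Retnlg* (AGATAG). Of 27025 mouse promoters of this length, 27.1% hold any of the spellings. Since the spellings were widened on these sequences, the protease matches cannot be weighed against that share. The PU.1 core occurred at 170 and 36 bases before the start of *S100a8*, and further in *Csf3r*, *Mpo* and *Kit*, against 23.1% of all promoters. The C/EBP-type letters were at 236 bases in *S100a9* and at 246 in *Retnlg* (9.55% of all promoters), and the E-box was at 130 bases in *S100a8* (12.2%). These matches describe the letters only, and no binding was measured.

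Each mouse had between 18609222 and 24753258 counted reads, and levels are given as normalised counts (CPM), in which the reads of a gene are scaled to the library size of the mouse after TMM correction. The miR-501 precursor was not analysed here, and the genotype of each mouse rests on its label. Of the 25700 genes, 14410 passed the filter on low counts and were tested between the genotypes with edgeR's quasi-likelihood test. Of the 10 genes, 9 passed. *Mpo* did not. Macrophage genes were abundant in every mouse, with 3098 to 4955 reads on *Adgre1*, the gene of the F4/80 antigen, and 4420 to 9730 on *Cd68*.

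Levels were compared between genes as CPM per kilobase of exon (CPM per kb), averaged over the 10 mice. *Csf3r* was highest at 8.60 CPM per kb, followed by *Cma1* at 5.76, *Mcpt4* at 4.42, *Tpsb2* at 3.79 and *Cpa3* at 3.69. *Kit* stood at 1.59 CPM per kb, *S100a9* at 1.57, *Retnlg* at 1.33, *S100a8* at 1.17 and *Mpo* at 0.0733. For scale, *Adgre1* stood at 54.2 and *Cd68* at 246.7 CPM per kb. Neighbours in this order were compared within mice by an exact sign-flip permutation test, two-sided, over 9 comparisons. The order came from the same 10 mice, so each p speaks only to how steadily a step held between mice. *Csf3r* exceeded *Cma1* in 8 of 10 mice (adjusted p = 0.0308, exact permutation test), and *Cma1* exceeded *Mcpt4* in 9 of 10 (adjusted p = 0.0176, exact permutation test). The step from *Cpa3* to *Kit* and that from *S100a8* to *Mpo* held in 10 of 10 mice, each with an adjusted p of 0.00879 by the same exact test. The other 5 neighbours did not differ beyond their spread, with adjusted p between 0.0668 (*Mcpt4* and *Tpsb2*) and 0.936 (*Retnlg* and *S100a8*) in that exact test. The lengths are those of all annotated exons merged, so a gene with long unused exons reads too low on this scale. Such an error is alike in every mouse, and the tests cannot show it.

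**Figure D1:**
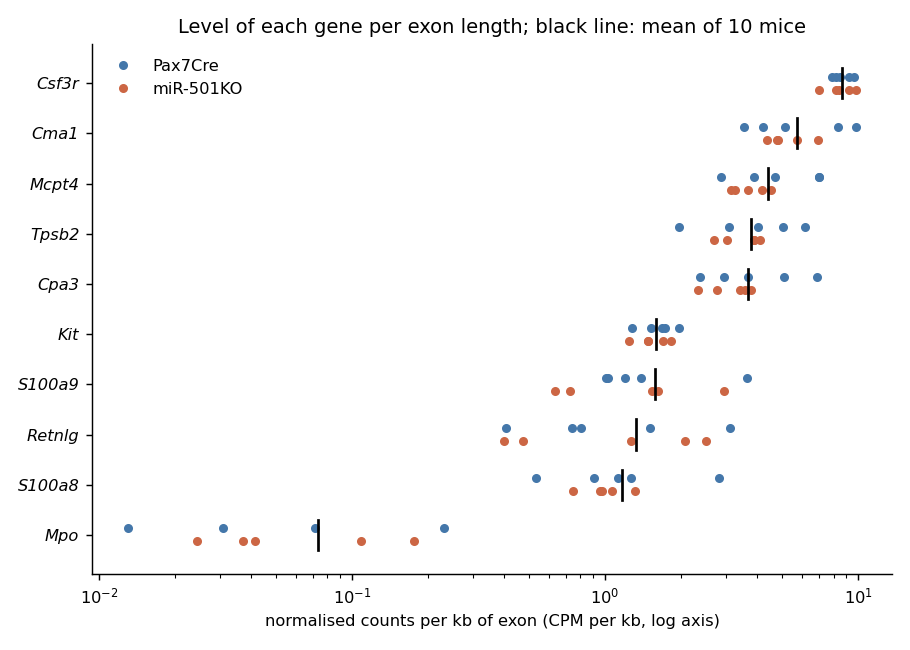
Level of each gene in CPM per kb of exon on a log axis, 1 point per mouse, blue for Pax7Cre and orange for miR-501KO, with a black line at the mean of 10 mice. *Csf3r* leads with a mean of 8.60, the 4 mast cell proteases lie between 3.69 and 5.76, and *Mpo* is lowest at 0.0733. The Pax7Cre mouse with 0 *Mpo* reads has no point.

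*S100a8* and *S100a9*, the most abundant transcripts of mature neutrophils, were barely present. *S100a8* had 14, 7, 37, 22 and 16 reads in Pax7Cre mice 1 to 5 and 13, 14, 22, 14 and 16 reads in miR-501KO mice 1 to 5. *S100a9*, its partner subunit, had 14, 10, 36, 18 and 11 reads in Pax7Cre mice and 20, 7, 37, 16 and 9 in miR-501KO mice. The third mouse of each genotype had the most reads of both genes in its group, and all other mice stayed at or below 22 reads. *S100a8* was 0.923 ± 0.608 CPM in Pax7Cre and 0.703 ± 0.144 CPM in miR-501KO muscle (SD, n = 5 each), and *S100a9* was 0.863 ± 0.586 and 0.780 ± 0.486 CPM (SD, n = 5 each). The groups overlapped for both genes. In edgeR, the log2 fold change of miR-501KO against Pax7Cre was -0.38 (SE 0.373) for *S100a8* and -0.12 (SE 0.464) for *S100a9*, each with an adjusted p of 1.00. The 95% intervals, -1.19 to 0.43 and -1.13 to 0.89, include a change of more than 2-fold downward for both. Without Pax7Cre mouse 3, both fold changes turned positive, to 0.059 and 0.37.

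*Retnlg* encodes a resistin-like protein of neutrophils and bone marrow. It had 20, 35, 9, 6 and 9 reads in Pax7Cre mice 1 to 5 and 7, 5, 18, 28 and 29 reads in miR-501KO mice 1 to 5. The mice high in *Retnlg* were not those high in *S100a8* and *S100a9*. Its mean was 0.780 ± 0.642 CPM in Pax7Cre and 0.796 ± 0.557 CPM in miR-501KO muscle (SD, n = 5 each), and the log2 fold change was 0.036 (SE 0.576, 95% interval -1.21 to 1.28, adjusted p = 1.00 in edgeR). Myeloperoxidase, *Mpo*, the peroxidase of azurophil granules that is transcribed mainly in precursors in the bone marrow, had 1, 2, 15, 0 and 5 reads in Pax7Cre mice and 15, 3, 2, 7 and 3 in miR-501KO mice. Of its 53 reads, 30 were in 2 mice, 1 of each genotype. *Mpo* was left out of the edgeR test by the filter, and an exact two-sided permutation test on its CPM gave p = 0.865, where the smallest p that 5 mice against 5 allow is 0.00794. An antisense gene, *Gm11505*, overlaps 512 of the 3424 exon bases of *Mpo*, and the strand setting of the counting is not given in the sources used here, so reads within that overlap cannot be assigned to either gene.

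*Csf3r* was the exception among the neutrophil genes. It had 684, 542, 560, 868 and 676 reads in Pax7Cre mice 1 to 5 and 830, 751, 706, 476 and 718 in miR-501KO mice 1 to 5. No mouse was near the low read numbers of *S100a8*, and the groups overlapped. Each mouse held between 7.67 and 35.8 *Csf3r* reads for every read on *S100a8* or *S100a9*. The mean was 31.3 ± 2.56 CPM in Pax7Cre and 30.7 ± 3.89 CPM in miR-501KO muscle (SD, n = 5 each). The log2 fold change was -0.028 (SE 0.0953, adjusted p = 1.00 in edgeR), with the narrowest 95% interval of the 9 genes tested, -0.23 to 0.18.

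*Csf3r* did not follow the other neutrophil genes from mouse to mouse. Correlations were taken over the 10 mice on deviations of log2(CPM + 0.1) from the mean of each genotype. They are descriptions, and mice share depth and scaling across genes. *S100a8* and *S100a9* had a Pearson r of 0.69 (rho 0.61), which fell to 0.47 without the 2 mice farthest from the median. *Csf3r* had r = -0.065 (rho -0.16) with *S100a8* and r = -0.40 (rho -0.45) with *S100a9*. With *Retnlg* it ran opposite, at r = -0.85 (rho -0.87), and r = -0.81 without the 2 farthest mice. Among 24 marker lists, *Csf3r* was closest to the summed CPM of the satellite cell list (*Pax7*, *Myf5* and *Myod1*, transcription factors of muscle stem cells and myoblasts), at r = 0.81 (rho 0.89), and 0.92 without the 2 farthest mice. With the list of 10 macrophage genes, r was 0.65 (rho 0.70), and the single genes differed, with 0.68 (rho 0.83) for *Cd68*, 0.50 (rho 0.66) for *Csf1r* and 0.22 (rho 0.15) for *Adgre1*. With the ligands of mast cells it was -0.78 (rho -0.87). The part of these cell types in the *Csf3r* level was not tested.

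**Figure D2:**
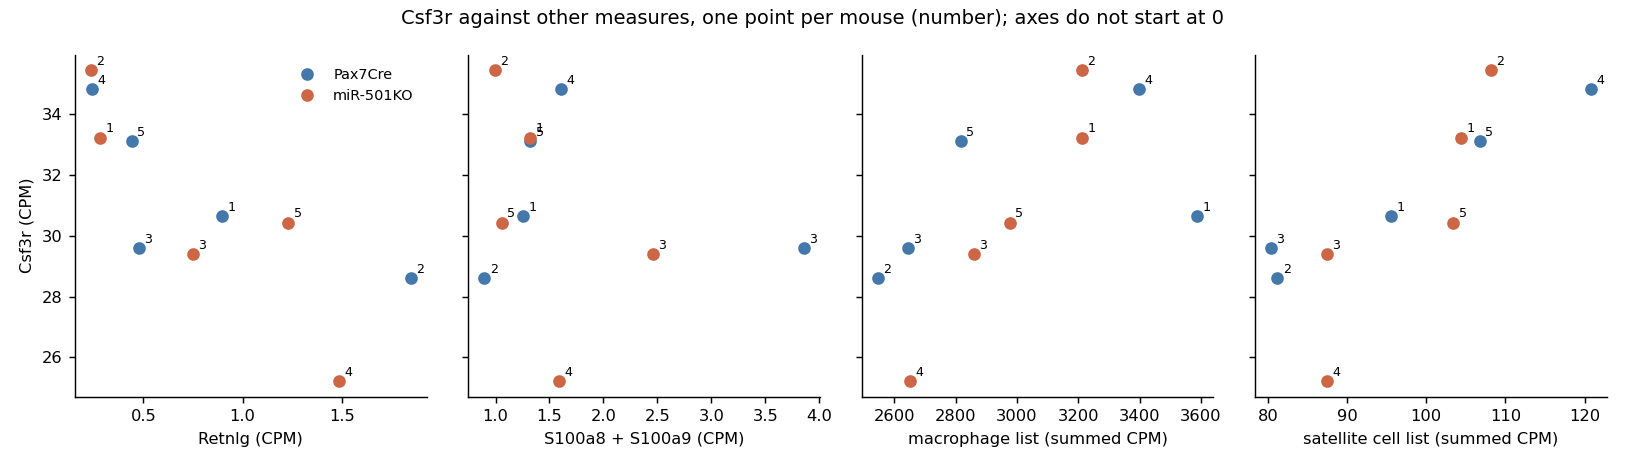
*Csf3r* in CPM (vertical axis, from about 25 to 35) against *Retnlg*, the sum of *S100a8* and *S100a9*, the summed macrophage list and the summed satellite cell list, all in CPM, with 1 numbered point per mouse. Mice high in *Csf3r* are low in *Retnlg* (r = -0.85) and high in the satellite cell list (r = 0.81), while r was -0.065 with *S100a8* alone and -0.40 with *S100a9* alone.

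Other genes of mature neutrophils ranged widely in reads. *Ly6g*, the surface antigen that defines mouse neutrophils, had 1 read in all 10 mice together. The chemokine receptor *Cxcr2* had 1 to 11 reads per mouse, *Trem1* had 0 to 9, and *Cd177* had 1 to 9. Of 24 further genes of mature neutrophils, 4 (*Stfa2*, *BC100530*, *Mrgpra2b* and *Itgb2l*) had no read. By counting error alone, this allows a mean of up to 3 reads over the 10 mice at 95% confidence. Spread between mice is not covered by that bound. Of the 24 genes, 13 passed the filter. Among these, *Hp*, haptoglobin, had 114 to 871 reads, the gelatinase *Mmp9* had 122 to 716, the lectin receptor *Clec4d* had 86 to 305 and the deiminase *Padi4* had 30 to 66. The collagenase *Mmp8* had 11 to 65 reads, the decoy receptor *Il1r2* 18 to 40, *Asprv1* 10 to 28 and *Wfdc21* 3 to 24. *Hp* and *Mmp9* are also made by other cells of muscle or blood. Of the 13 genes tested, 5 had a positive and 8 a negative fold change, with a median log2 fold change of -0.11 beside -0.0042 over all genes tested, and 0 had an adjusted or an unadjusted p under 0.05 in edgeR. The 10 genes of precursors and their granules were low, from 0 reads in total on *Fcnb* and 5 on *Elane* to 34 on *Cebpe*, 61 on *Prtn3* and 116 on *Lcn2*, and only *Lcn2* passed the filter.

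*Lcn2*, the lipocalin of secondary granules that binds bacterial siderophores, was the only one of the 113 list genes tested with an unadjusted p under 0.05 in edgeR, beside 1.05% of all genes tested. Its 3 to 21 reads per mouse gave a log2 difference of -1.07 between the genotypes (SE 0.403, p = 0.0204, adjusted p = 1.00 in edgeR), with an exact permutation p of 0.0556. It therefore did not pass, and it is also made by epithelial and other stressed cells. The chemokine *Cxcl1*, which attracts neutrophils, had 12 to 30 reads and *Ppbp*, a platelet chemokine, had 4 to 28, with log2 fold changes of 0.49 and 0.64 and an adjusted p of 1.00 for both in edgeR. *Csf3*, the ligand of *Csf3r*, had 4 reads in all. The subunits of the phagocyte oxidase, which neutrophils share with macrophages, were abundant, with 3090 to 5334 reads on *Cybb* and 1780 to 3662 on *Cyba*. All 7 genes of the list of S100 receptors and oxidase subunits were tested, 0 passed, and their median log2 fold change was 0.022. Red cell genes summed to 400.4 CPM in miR-501KO mouse 2 and to between 55.5 and 179.8 CPM in the other mice, and that mouse had 14 *S100a8* reads, inside the range of the rest, and the fewest *S100a9* (7) and *Retnlg* (5) reads of the 10. The mouse with 179.8 CPM, Pax7Cre mouse 3, had the most *S100a8* reads (37) and 36 *S100a9* reads. The part of blood in these levels was not tested.

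The 4 mast cell proteases were read in every mouse, at 66 to 202 reads each. *Cpa3*, a carboxypeptidase, had 100, 146, 198, 90 and 114 reads in Pax7Cre mice 1 to 5 and 88, 89, 138, 98 and 128 in miR-501KO mice 1 to 5. *Cma1*, a chymase, had 86, 172, 202, 114 and 114 reads in Pax7Cre mice and 119, 111, 150, 143 and 123 in miR-501KO mice. Pax7Cre mice 2 and 3 were the highest of the 10 in both. *Mcpt4*, the other chymase, had 71, 147, 147, 130 and 88 reads in Pax7Cre mice and 90, 106, 111, 66 and 96 in miR-501KO mice. *Tpsb2*, a tryptase, had 70, 152, 187, 123 and 131 reads in Pax7Cre mice and 107, 138, 149, 117 and 114 in miR-501KO mice. Pax7Cre mice 2 and 3 again had the most reads, and Pax7Cre mouse 1 was among the lowest. The genotypes overlapped in all 4 genes.

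All 4 proteases had lower means in miR-501KO muscle, by less than the SD of the Pax7Cre mice. For *Cpa3* and *Mcpt4* the difference was larger than the SD of the miR-501KO mice. *Cpa3* was 6.37 ± 2.75 CPM in Pax7Cre and 4.82 ± 0.926 CPM in miR-501KO muscle, and *Mcpt4* was 5.65 ± 2.06 and 4.16 ± 0.649 CPM (SD, n = 5 each). *Cma1* was 6.75 ± 2.97 and 5.81 ± 1.13 CPM, and *Tpsb2* was 6.48 ± 2.62 and 5.61 ± 0.985 CPM (SD, n = 5 each). In edgeR, the log2 fold change was -0.43 for *Mcpt4* (SE 0.230, 95% interval -0.93 to 0.065) and -0.39 for *Cpa3* (SE 0.259, -0.95 to 0.17). For *Cma1* it was -0.21 (SE 0.260, -0.77 to 0.35) and for *Tpsb2* -0.20 (SE 0.254, -0.75 to 0.35). The unadjusted p was smallest for *Mcpt4*, at 0.0826 in edgeR, where all 5 miR-501KO mice lay below the Pax7Cre median, and its exact permutation p was 0.206. The adjusted p was 1.00 for all 4 in edgeR. Without Pax7Cre mouse 1, the *Mcpt4* log2 fold change was -0.58 with an unadjusted p of 0.0123 in edgeR, and without Pax7Cre mouse 4 that of *Cpa3* was -0.55 with an unadjusted p of 0.0371, both with an adjusted p of 1.00. Without Pax7Cre mouse 3, all 4 were closer to 0, with *Mcpt4* at -0.29, *Cpa3* at -0.14, *Cma1* at 0.016 and *Tpsb2* at 0.0014.

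The 4 proteases varied together. Their summed CPM was 14.6, 32.6, 38.8, 18.3 and 21.9 in Pax7Cre mice 1 to 5 and 16.2, 20.95, 22.8, 22.5 and 19.5 in miR-501KO mice 1 to 5. The highest mouse thus had 2.65 times the sum of the lowest. The 6 pairs of proteases had r between 0.64 (*Cpa3* and *Mcpt4*) and 0.90 (*Cma1* and *Tpsb2*), with rho between 0.64 and 0.93, and r stayed between 0.44 and 0.82 without the 2 farthest mice. The index of dispersion, the variance of the reads within a genotype over that of counting alone, was 14.9 for *Cpa3*, 8.90 for *Mcpt4*, 16.1 for *Cma1* and 13.4 for *Tpsb2*. Tested genes with like counts had medians of 3.22 to 3.35. The spread was larger in Pax7Cre mice (15.6 to 27.7 over the 4 genes) than in miR-501KO mice (2.19 to 4.60), a difference that was not tested. Pairs of Pax7Cre mice also differed more when many genes were compared at once. The chi-square over its degrees of freedom was 19.97 to 226.5 between Pax7Cre mice and 9.51 to 32.3 between miR-501KO mice. Whether the proteases differed in spread beyond this was not tested.

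The protease sum moved with lists of other tissue cells. Among 24 marker lists, its r was highest with the fibroblast list (*Pdgfra*, *Dcn*, *Pi16* and *Dpp4*), at 0.84 (rho 0.96), and 0.91 without the 2 farthest mice. It was lowest with the macrophage list, at r = -0.88 (rho -0.88), and -0.83 without them, and the phagocyte oxidase list had r = -0.81 (rho -0.84). The sum did not follow the list of 12 other mast cell genes, at r = 0.012 (rho -0.18), and -0.74 without the 2 farthest mice. With the list of further mast cell proteases, at 2 to 14 reads per mouse, r was 0.14 (rho 0.24), and 0.58 without those mice. In Pax7Cre mice 2 and 3, with the highest protease sums, the fibroblast list was at 1295 and 1168 CPM and the macrophage list at 2546 and 2644 CPM. In Pax7Cre mouse 1, with the lowest, the lists were at 849.0 and 3588 CPM. All 4 fibroblast genes had negative fold changes, with a median of -0.059, and 7 of 10 macrophage genes had positive ones, with a median of 0.016, and 0 of either list passed. The part of these cells in the protease levels was not tested.

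**Figure D3:**
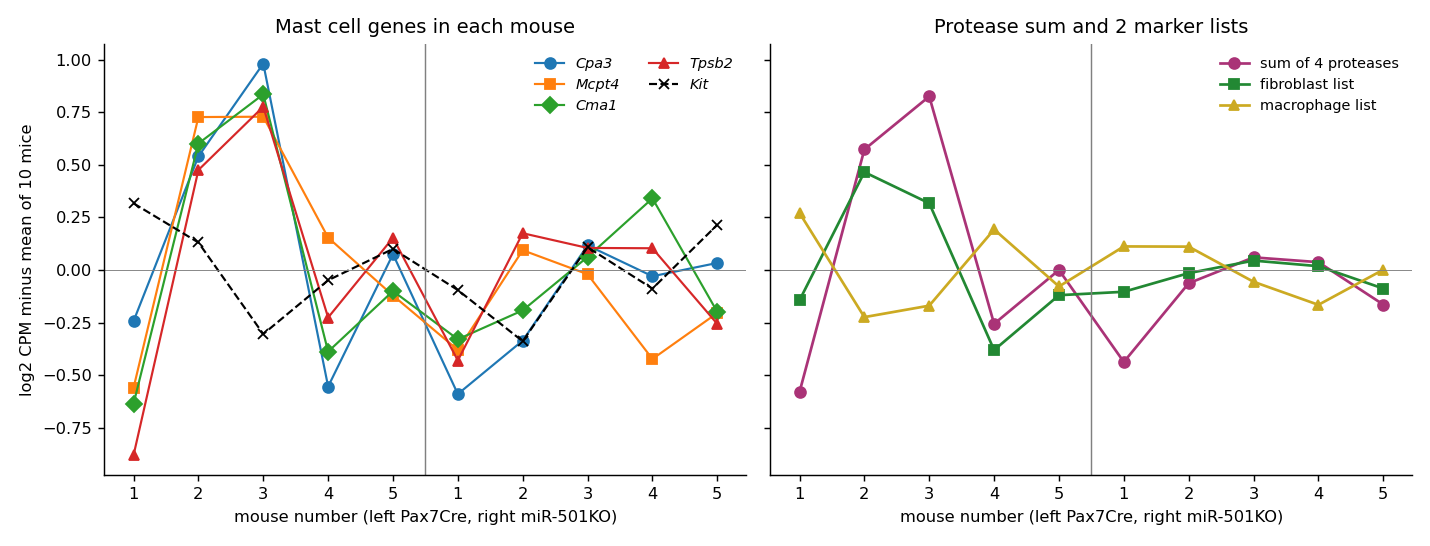
Left, log2 CPM of the 5 mast cell genes in each mouse after subtracting the mean of 10 mice, Pax7Cre mice left of the grey line and miR-501KO mice right of it. Right, the summed CPM of the 4 proteases, the fibroblast list and the macrophage list on the same scale. The 4 proteases peak in Pax7Cre mice 2 and 3, where the fibroblast list is high and the macrophage list low, and *Kit* (dashed) does not follow.

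*Kit* did not follow the proteases. It had 390, 291, 215, 338 and 307 reads in Pax7Cre mice 1 to 5 and 328, 235, 363, 249 and 384 in miR-501KO mice 1 to 5. Pax7Cre mouse 3, highest in 3 of the proteases, had the fewest *Kit* reads, and Pax7Cre mouse 1, low in the proteases, had the most. Its r with the 4 proteases lay between -0.17 (*Cpa3*) and -0.59 (*Tpsb2*), and without the 2 farthest mice between -0.23 and 0.21. The mean was 14.6 ± 2.27 CPM in Pax7Cre and 13.8 ± 2.00 CPM in miR-501KO muscle (SD, n = 5 each), with a log2 fold change of -0.081 (SE 0.128, 95% interval -0.36 to 0.20, adjusted p = 1.00 in edgeR). *Kit* is also made by melanocytes, progenitors and some vessel-associated cells, and so marks mast cells less closely than the proteases do.

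Other mast cell genes differed widely in reads. Reads were few on *Fcer1a* (1 to 15 per mouse) and *Ms4a2* (0 to 7), subunits of the high-affinity IgE receptor. They were also few on *Mrgprb1* (3 to 17) and *Mrgprb2* (2 to 14), a receptor of connective tissue mast cells. *Hpgds*, a prostaglandin D synthase, had 738 to 1180 reads, *Mitf* 270 to 435, the IL-33 receptor *Il1rl1* 117 to 307, *Gata2* 123 to 184 and *Tph1*, a serotonin synthesis enzyme, 32 to 59. These 5 are made by other cells of muscle as well. *Hdc* had 18 to 61 reads, and its log2 fold change of 0.40 (SE 0.267) was the largest of the list. Of 12 genes, 6 were tested, 5 with a positive and 1 with a negative fold change, and 0 passed. Their median log2 fold change was 0.13, opposite in sign to the 5 mast cell genes above, whose median was -0.21. *Tph1* had an exact permutation p of 0.0397 with an adjusted p of 1.00 in edgeR.

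Further proteases of the family were almost unread. *Tpsab1*, the other main tryptase, had 1 to 9 reads per mouse against 70 to 187 on *Tpsb2*. The mucosal proteases *Mcpt1* and *Mcpt2* had 2 and 11 reads in all, *Cma2* had 3 and *Mcpt9* had 0. The connective tissue proteases *Mcpt4* and *Cma1* thus led the chymase reads. Stem cell factor, *Kitl*, had 651 to 1033 reads per mouse, and *Il33*, whose product activates mast cells, 332 to 578. The 3 ligands with enough reads, *Kitl*, *Il33* and *Tslp*, had negative fold changes with a median of -0.15, and 0 passed. *Il3* and *Il9* had no reads. Basophil genes (*Mcpt8*, *Prss34* and *Cd200r3*) had 0 to 10 reads each per mouse, and of 9 eosinophil genes 6 had reads and 3 (*Epx*, *Ear1* and *Ear6*) had none. *Ear2* had 26 to 96 reads per mouse, *Siglecf* 8 to 21 and *Ccr3* 3 to 25, and 0 of these 3 passed the test in edgeR.

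Across the 10 genes, no difference between the genotypes passed the test. Of the 9 tested, 0 had an adjusted p under 0.05 in edgeR, as did 0.0% of all 14410 genes. None of the 9 had an unadjusted p under 0.05, as against 1.05% of all genes (151 genes). The genotypes overlapped in all 10 genes, and they did not overlap in 0.139% of all genes. Of the 9 fold changes 8 were negative, the *Retnlg* change being positive, beside 52.1% of all genes tested with negative values. This count rested in part on 1 mouse. Without Pax7Cre mouse 3, *S100a8*, *S100a9*, *Cma1* and *Tpsb2* were positive and *Retnlg* was negative. A p that misses the threshold does not show that the levels were equal. The intervals of *Csf3r* and *Kit* stay within a log2 change of 0.36 in either direction, and those of *S100a8*, *S100a9* and *Retnlg* reach past a log2 change of 1 downward and to 0.43, 0.89 and 1.28 upward.

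**Figure D4:**
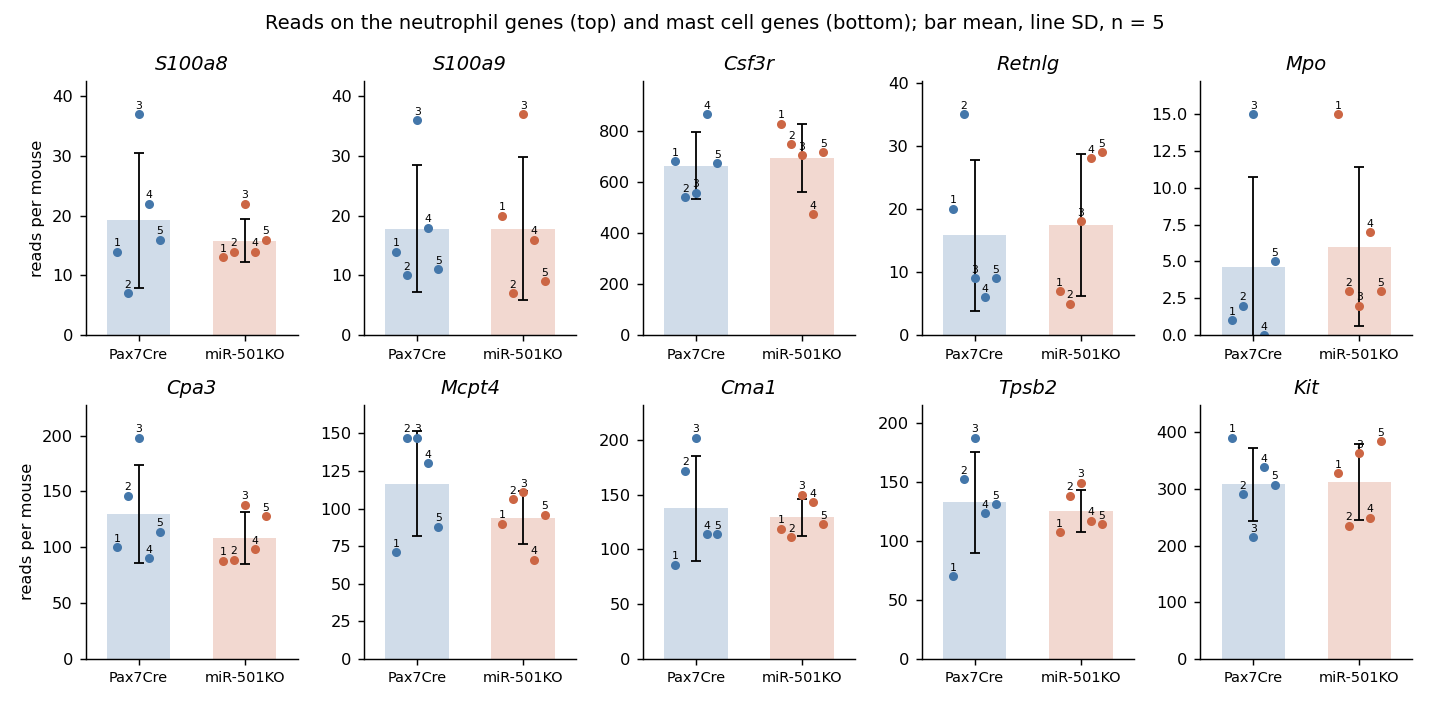
Reads per mouse on the 5 neutrophil genes (top) and the 5 mast cell genes (bottom), points numbered by mouse, with the group mean (bar) and SD (line), n = 5. *S100a8* and *S100a9* do not exceed 37 reads in any mouse, and *Csf3r* does not fall under 476, and the genotypes overlap in every panel.

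**Figure D5:**
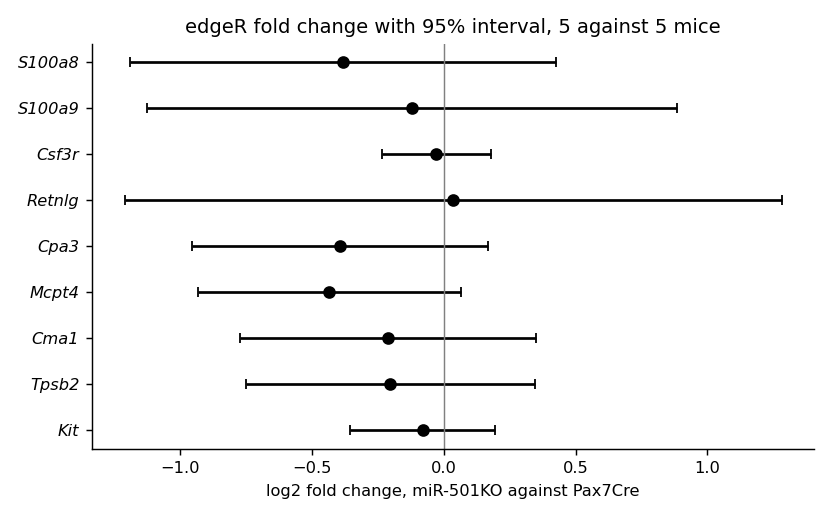
The log2 fold change of miR-501KO against Pax7Cre for the 9 genes tested in edgeR, with 95% intervals and a grey line at 0. All 9 intervals include 0, and *Csf3r* has the narrowest, -0.23 to 0.18, and *Retnlg* the widest, -1.21 to 1.28.

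The spread between mice exceeded counting noise even in the genes with few reads, with an index of dispersion of 4.25 for *S100a8*, 7.40 for *S100a9* and 6.95 for *Mpo* over both genotypes. Within genotypes, the index of *S100a8* was 7.79 in Pax7Cre and 0.715 in miR-501KO mice, so its 5 miR-501KO mice varied by no more than counting gives. *Csf3r* varied about as the genes of like count did, with an index of 7.29 and a median of 6.96, and *Retnlg* varied more, with 9.84 and a median of 1.78. The sum of *S100a8*, *S100a9*, *Csf3r* and *Retnlg* was 33.9 ± 2.02 CPM in Pax7Cre and 33.0 ± 3.13 CPM in miR-501KO muscle (SD, n = 5 each), of which *Csf3r* made up 92.8%.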

How the data were processed

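Total RNA of TA muscle was made into stranded poly(A) libraries and sequenced as single 100-base reads. Reads were aligned by the authors in STAR, and they deposited raw counts, whole numbers per gene and mouse. The submitters' processing notes also name featureCounts, R 3.5.1 and GRCm38.p5, while the strand setting and the treatment of reads matching several genes are not given in the sources used here. Symbols came from GENCODE M21 for 25664 of 25700 genes, and promoters from RefSeq. TMM factors and CPM were computed with edgeR 4.0.16 (R 4.3.3), filterByExpr (minimum count 10, minimum total 15) kept 14410 genes, and the quasi-likelihood test compared 5 miR-501KO with 5 Pax7Cre mice, with Benjamini-Hochberg adjustment over all genes. Exact permutation tests used all 252 assignments of mice to genotypes, and those of levels within mice all 1024 sign flips. Fold changes are log2.

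The 10 genes and the marker lists (166 genes in all) were chosen with earlier results of these data known. Named besides the 10 were the most read genes of the other neutrophil and mast cell lists, up to 5 a list, and any with an unadjusted p under 0.05 in edgeR, of which 1 is not reported here. Other list genes were named as markers, after their values were seen. Whether the samples came from separate mice rests on the labels, and mice of a genotype differed by more than counting noise (lowest chi-square over its degrees of freedom 9.51). The edgeR quasi-likelihood test was tried on counts simulated from the fit to these data. The permutation test between genotypes was tried on small made-up cases. The alternatives were other size factors, filters and tests, a replicate block, and leaving out each mouse.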

Additional observations from a re-analysis of the deposited data

Results flagged for a closer look

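In 26 sets of 5 mice, the highest and the lowest mouse were compared with the rest, and 2 sets held a mouse far from the others, where chance gives 1.3. *S100a9* in Pax7Cre mouse 3 was 1.90 CPM, beside 0.528 to 0.722 CPM in the other 4 Pax7Cre mice. The sum of *S100a8* and *S100a9* in the same mouse was 3.86 CPM, beside 0.897 to 1.60 CPM. In this mouse *S100a9* had 36 reads and *S100a8* had 37, and it was also highest in the summed CPM of the 4 mast cell proteases, at 38.8.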

How the results depend on the processing

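No gene of the 10 and no gene in the whole table passed an adjusted p of 0.05 in any of 17 alternative fits, DESeq2 included. The number of the 10 with an unadjusted p under 0.05 was 0, and it was 1 with a replicate block (*Mcpt4*), 1 without Pax7Cre mouse 1 (*Mcpt4*) and 1 without Pax7Cre mouse 4 (*Cpa3*), ranging from 0 to 1 when a mouse was left out. Mice with the same number did not deviate together, with correlations of 0.34, -0.15, 0.16, -0.31 and 0.21, so the numbers were not taken as pairs, and the block left 0 genes past the threshold and 189 at an unadjusted p under 0.05, beside 151. That number was 312 without a filter and ranged from 98 to 470 when a mouse was left out, with 453 without Pax7Cre mouse 2, 470 without Pax7Cre mouse 4 and 98 without miR-501KO mouse 1. Leaving out each mouse moved the log2 fold change of *S100a8* from -0.57 to 0.059, *S100a9* from -0.53 to 0.37, *Retnlg* from -0.28 to 0.61, *Csf3r* from -0.084 to 0.035, *Cma1* from -0.36 to 0.016 and *Tpsb2* from -0.38 to 0.0014, all changing sign, while *Cpa3* (-0.55 to -0.14), *Mcpt4* (-0.58 to -0.29) and *Kit* (-0.16 to -0.0059) kept theirs. Of 150 fold changes of the tested genes in the alternative fits, 13 changed sign, all of them in fits without a mouse. The log2 ratio of the neutrophil sum was -0.039, ranged from -0.079 to 0.013 without each mouse (above 0 without miR-501KO mouse 4), and was -0.27 for *S100a8* and *S100a9* alone and -0.17 without *Csf3r*, both chosen after seeing the data, since *Csf3r* makes up most of the sum. The ratio of the mast cell protease sum was -0.31 and ranged from -0.45 to -0.097 without each mouse. Depth kept *Mpo* out of the test, while for *S100a8*, *S100a9* and *Retnlg* the variance between mice was 4.25, 7.40 and 9.84 times that of counting alone.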

Other observations

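The genes whose levels followed the protease sum most closely over the 10 mice, taken from all 14410 genes tested, were *Hoxb7* (r = 0.96, rho 0.98), *Xkrx* (r = 0.95), *Steap4* (r = 0.93), *Sbsn* (r = 0.93) and *Abhd17b* (r = 0.92). *Steap4* had 1235 to 1710 reads per mouse and *Hoxb7* 36 to 74. Closest to the sum of the 4 neutrophil genes, which is mostly *Csf3r*, were *Pyroxd2* (r = 0.94), *Scnn1a* (r = 0.93), *Matn3* (r = 0.93), *Efs* (r = 0.92) and *Ppp2r1b* (r = 0.92). These genes were picked as the highest of 14410 over 10 mice, so the values are descriptions with no test. For the sum of *S100a8* and *S100a9*, chosen after the data were seen, the closest were *Ccdc93* and *Nup210l*, both with r = 0.95.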
